A study of Mus musculus with 4 samples.

Results

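The genes described here are 9 carriers that move organic anions, organic cations and urate across the proximal tubule cell: Slc22a6, Slc22a8, Slc22a7, Slc22a2, Slc22a12, Slc22a30, Slco1a6, Slc47a1 and Abcc2. They were chosen by symbol, and all 9 were found once each among the 32285 genes of the count tables. Their levels were read in whole kidney single-cell RNA-seq libraries from male C3H mice aged 18 weeks. There were 4 libraries, 1 per condition: wild type on normal diet (WT-ND), wild type on high fat diet (WT-HFD), Sweet Pee on normal diet (SP-ND) and Sweet Pee on high fat diet (SP-HFD). Sweet Pee is a germline missense allele of Slc5a2, which encodes the glucose carrier SGLT2, and the high fat diet, with 60% of calories from fat, was given for 8 weeks from 10 weeks of age. With 1 library per condition, and with the number of mice behind each library not given in the sources used here, a difference between conditions has no replicate check, and mouse, library and condition cannot be told apart.

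The proximal tubule clears drugs, toxins and metabolites from blood into urine in 2 steps. Organic anions enter the cell across its basolateral face by exchange for a dicarboxylate, through Slc22a6 (OAT1) and Slc22a8 (OAT3), and leave through apical pumps such as Abcc2 (MRP2). Organic cations enter through Slc22a2 (OCT2), driven by the membrane potential, and leave in exchange for protons through Slc47a1 (MATE1). Slc22a12 (URAT1) takes urate back from the lumen, Slc22a7 (OAT2) is an anion carrier, Slco1a6 is a rodent organic anion transporting polypeptide, and Slc22a30 is a less studied rodent relative of the organic anion transporters.

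Of the 9 genes, 5 lie on chromosome 19 of the GRCm38.p6 assembly in the RefSeq annotation. Slc22a8 (chr19:8591254-8611835) and Slc22a6 (chr19:8617996-8628299) are tandem neighbours on the plus strand, 6.2 kb apart, and Slc22a30 (chr19:8335371-8405111, minus strand) ends 186 kb before Slc22a8. Slc22a12 (chr19:6535854-6543070, minus strand) and Abcc2 (chr19:43782308-43838332, plus strand) lie farther off. Slc22a2 (chr17:12584189-12628489) and Slc22a7 (chr17:46432185-46438477) are on chromosome 17, Slco1a6 (chr6:142085761-142186177) on chromosome 6 and Slc47a1 (chr11:61343400-61378842) on chromosome 11. Since Slc22a6 and Slc22a8 are the neighbours whose levels part below, the 150 bases before their RefSeq starts are shown 5′ to 3′, from the C57BL/6J reference and not from the C3H mice themselves. They span chr19:8617846-8617995 for Slc22a6 and chr19:8593032-8593181 for Slc22a8, both on the plus strand of GRCm38.p6, and the Slc22a8 start used lies inside the annotated gene span. Capitals mark the letters GTTAAT, the half-site of the factor HNF1.
Slc22a6: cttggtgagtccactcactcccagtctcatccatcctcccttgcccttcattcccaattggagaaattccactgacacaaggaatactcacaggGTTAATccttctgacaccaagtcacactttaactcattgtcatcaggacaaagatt
Slc22a8: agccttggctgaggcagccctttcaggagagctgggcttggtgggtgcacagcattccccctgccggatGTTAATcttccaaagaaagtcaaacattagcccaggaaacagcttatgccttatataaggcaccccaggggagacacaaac
The half-site stood at bases -56 to -51 before the Slc22a6 start and at bases -81 to -76 before the Slc22a8 start. These exact letters were found on either strand in 3.71% of 32851 RefSeq promoter windows of the same length. They were in no window of the other 5 members with an entry (Slc22a2, Slc22a12, Slc22a30, Slco1a6 and Abcc2). Variants of the half-site were not searched, so their absence from those 5 windows was not tested. Neither the HNF4 letters CAAAGTCCA nor the PPAR direct repeat 1 motif was found on either strand in any of the 7 windows, and these letters were in 0.271% and 0.0304% of all windows. Slc22a7 and Slc47a1 were not searched.

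Early proximal tubule cells were those with at least 2 unique molecular identifiers (UMIs, each a counted RNA molecule) of Slc5a12, the sodium lactate carrier of the first segments, and late cells those with at least 2 UMIs of Slc7a13, an amino acid carrier of the later segments. After removal of likely doublets and of barcodes outside the limits on genes and mitochondrial reads, 32280 of 58660 barcodes remained. Values given in library order run from WT-ND through WT-HFD and SP-ND to SP-HFD. The early gate held 1056, 525, 333 and 261 cells in library order, and the late gate 1203, 808, 490 and 291. Cells passing both gates numbered 184, 87, 31 and 27 and were counted in both. Levels are UMIs per 1000000 UMIs of the pooled cells (CPM), and their intervals are exact Poisson 95% intervals that cover counting error only. The pools held 3468675 to 13956306 UMIs, and the floor of 3 UMIs stood at 0.865 CPM in the smallest pool. Libraries shared 54 to 77 cell barcodes in each pair. The shared proximal tubule markers were high in all 8 pools, with a summed level of 8460 to 13669.7 CPM. Markers of other cell types moved with the late gate of WT-HFD, where the thick ascending limb list stood at 1567 CPM against 445 to 641 CPM in the other late pools and where 14.2% of late cells had another class's markers in the lead (3.27% to 9.28% in the other libraries), and the late ratios past the fold that involve WT-HFD are also given below without those cells. The part of these cells in the ratios of early over late within WT-HFD was not tested. The paper on these data describes a proximal tubule population, PT-HFD, found mainly in WT-HFD, that also expresses Slc12a1 and Umod of the thick ascending limb. Whether the cells left out belong to it was not tested. Slc5a2 itself was at 566 and 383 CPM in early cells of WT-ND and WT-HFD and at 132 and 156 CPM in those of SP-ND and SP-HFD; a missense allele need not lower RNA, so this level is no check of the labels.

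Slc22a6, the basolateral uptake carrier OAT1, reached 664, 834, 451 and 926 CPM among early cells in library order. Both high fat libraries were above both normal diet libraries there, an order that did not hold in the early cells without a late marker UMI (below). In late cells its levels were 1029, 853, 822 and 986 CPM in the same order. This was a narrower spread, with WT-HFD below WT-ND and SP-HFD above SP-ND.

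Slc22a8, the neighbouring uptake carrier OAT3, stood at 501, 413, 302 and 455 CPM among early cells in library order. In late cells it was at 389 and 314 CPM in the normal diet libraries WT-ND and SP-ND, and at 184 and 180 CPM in the high fat libraries WT-HFD and SP-HFD. Late cells of both high fat libraries thus held less Slc22a8 than late cells of either normal diet library, whereas early cells showed no such split by diet.

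The organic cation pair had its low and high values in other libraries. Slc22a2, the uptake carrier OCT2, was at 203, 205, 122 and 206 CPM in early cells and at 262, 223, 220 and 313 CPM in late cells in library order. The early SP-ND pool was the low value and the late SP-HFD pool the high value. Slc47a1, the apical exit carrier MATE1, lay between 264 and 297 CPM in all 4 early pools, and its late levels were 304, 202, 279 and 262 CPM, with WT-HFD the low value.

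Slc22a12, the urate carrier URAT1, was at 331, 284, 220 and 299 CPM in early cells and at 482, 324, 397 and 379 CPM in late cells. Within each library the late level was above the early level. Slc22a30 was at 209, 305, 123 and 304 CPM in early cells and at 233, 297, 176 and 430 CPM in late cells. In both segments each high fat library was above both normal diet libraries, and SP-ND was the lowest.

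Slco1a6, the polypeptide carrier, was at 210, 174, 171 and 150 CPM in early cells and at 260, 133, 301 and 153 CPM in late cells. Abcc2, the apical efflux pump, was at 210, 140, 197 and 137 CPM in early cells and at 188, 109, 222 and 172 CPM in late cells. For Abcc2 in both segments, and for Slco1a6 in late cells, both normal diet libraries were above both high fat libraries. Reads of Slc22a30 and Slco1a6 could be lost to or shared with close relatives in their gene clusters, so their levels are less certain.

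**Figure D1:**
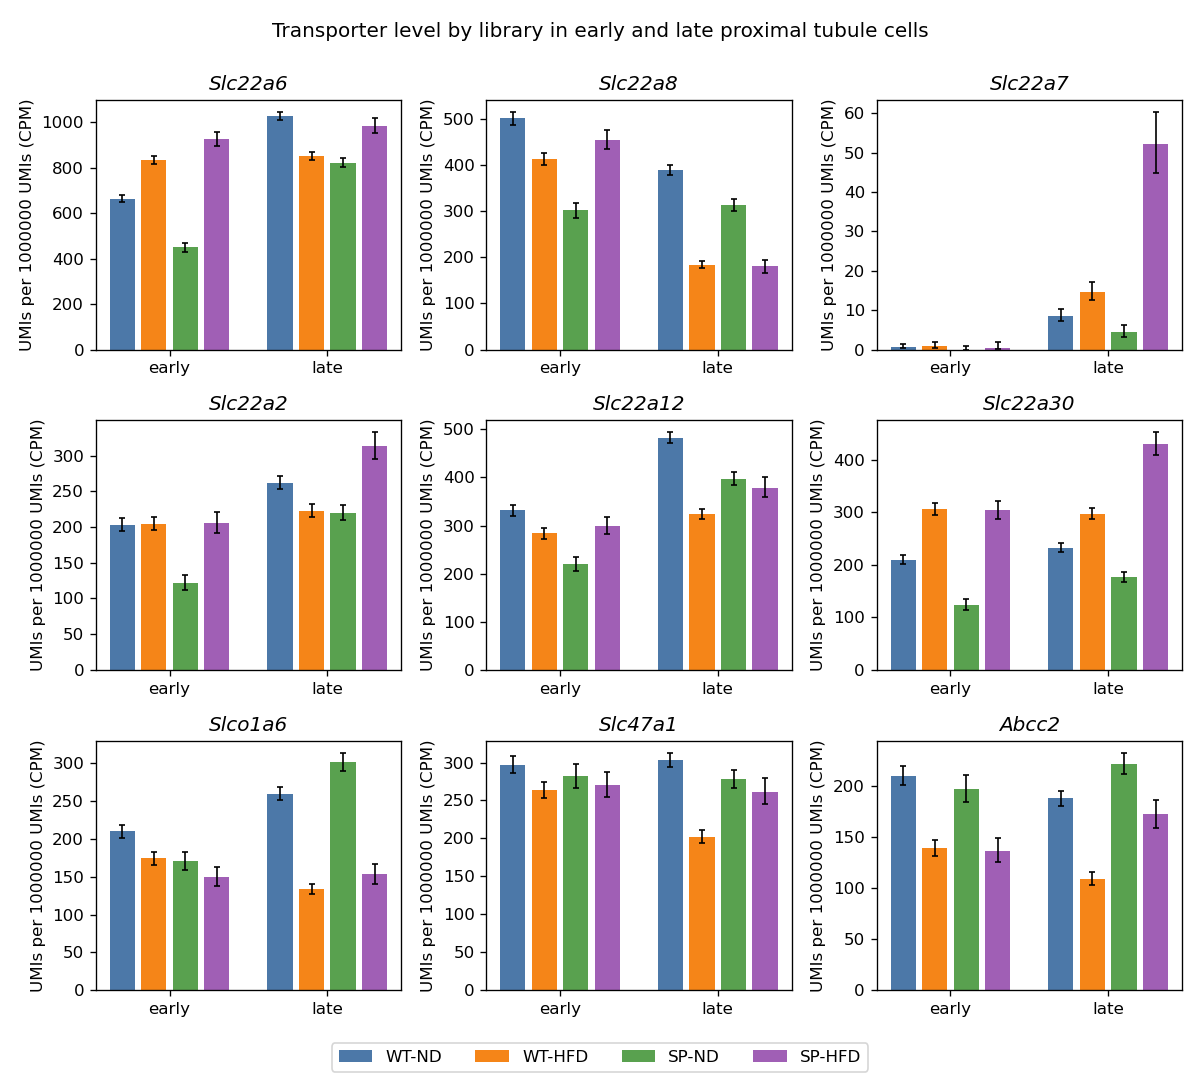
Level of each transporter in CPM (linear axis from 0, its own scale in each panel) in early and late proximal tubule cells, with 1 bar per library and exact Poisson 95% intervals that cover counting error only. Late Slc22a8 falls into a normal diet pair (389 and 314 CPM) and a high fat pair (184 and 180 CPM), and Slc22a7 stands out in late cells of SP-HFD at 52.2 CPM.

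Slc22a7, the anion carrier OAT2, was scarce in early cells, with 7, 8, 0 and 2 UMIs in library order. The 0 UMIs in SP-ND allow a level of up to 0.661 CPM. In late cells it was at 8.60, 14.7, 4.58 and 52.2 CPM, from 120, 158, 36 and 181 UMIs. Late cells of SP-HFD held the most, with no overlap between its interval (44.9 to 60.4 CPM) and that of any other library.

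The first comparison asked where along the tubule each carrier was placed, with the 4 libraries as replicates and each library paired with itself. Cells passing both gates were left out of it. Slc22a7, Slc22a2 and Slc22a12 were higher in late cells past an adjusted p of 0.05, no member was higher in early cells past it, and 6 of 9 were not called. Over all 11080 genes tested, 9.81% were called in either direction, 5.01% as higher in early and 4.80% as higher in late cells, by edgeR's quasi-likelihood test with Benjamini-Hochberg adjustment. At an unadjusted edgeR p under 0.05, 1 member was higher in early and 5 in late cells. The share of all genes at that unadjusted threshold was not computed, so these 2 counts have no background beside them. DESeq2 called none as higher in early and 3 as higher in late cells after adjustment, against 756 of 11080 genes in either direction. The median log2 ratio of early over late was -0.36 over the 9 members and 0.00 over all genes.

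Slc22a7 differed most in this test, with an early over late log2 ratio of -5.28 (SE 0.39, edgeR adjusted p = 0.000411), lower in early cells in 4 of 4 libraries. Slc22a12 had a log2 ratio of -0.61 (SE 0.14, edgeR adjusted p = 0.0319), and the values within libraries, in library order, were -0.73, -0.25, -0.96 and -0.41. Slc22a2 had a log2 ratio of -0.59 (SE 0.13, edgeR adjusted p = 0.0286), with -0.51, -0.16, -0.91 and -0.72 by library. These last 2 calls rest on which libraries and cells enter. Both were lost without WT-ND, without SP-ND or without SP-HFD, with edgeR adjusted p from 0.0619 to 0.141. Both were also lost without the library block (edgeR adjusted p = 0.211 for Slc22a2 and 0.154 for Slc22a12). With doublets kept both were lost too, and 1 member was called.

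The early over late ratios of the anion uptake carriers differed between the normal diet and the high fat libraries. Slc22a8 had early over late log2 ratios of 0.45 in WT-ND and -0.08 in SP-ND but of 1.54 in WT-HFD and 1.82 in SP-HFD. Slc22a6 had ratios of -0.87 in WT-ND and -0.99 in SP-ND but of -0.06 in WT-HFD and -0.11 in SP-HFD. On high fat diet Slc22a8 was thus higher in early than in late cells in both genotypes, and Slc22a6 was close to equal in both segments. The early levels of Slc22a6 depended on which early cells were counted. Without early cells that held a late marker UMI, its early diet log2 ratio was -1.06 in wild type and -0.41 in Sweet Pee mice. With all early cells it was 0.33 and 1.04. Early over late ratios were not computed in that setting. Neither gene passed the test over the 4 libraries (edgeR adjusted p = 0.115 for Slc22a8 and 0.124 for Slc22a6), and the difference between diets was not tested. With no filter on low counts Slc22a8 and Slc22a6 were both called (edgeR adjusted p = 0.000125 and 0.00963), Slc22a8 was called without SP-ND (0.0161), and Slc22a6 was called without WT-HFD (0.0400).

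Slc22a30 (log2 ratio -0.36, edgeR adjusted p = 0.106), Slco1a6 (-0.24, 0.521), Slc47a1 (0.10, 0.642) and Abcc2 (-0.02, 0.961) were not called, though Slc22a30 was without WT-HFD (0.0183) and with at least 3 UMIs of the gate gene (0.0429). For Slco1a6 the 4 libraries gave both signs, from -0.90 in SP-ND to 0.49 in WT-HFD. Slc47a1 was within 0.06 of 0 in 3 libraries and at 0.48 in WT-HFD.

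**Figure D2:**
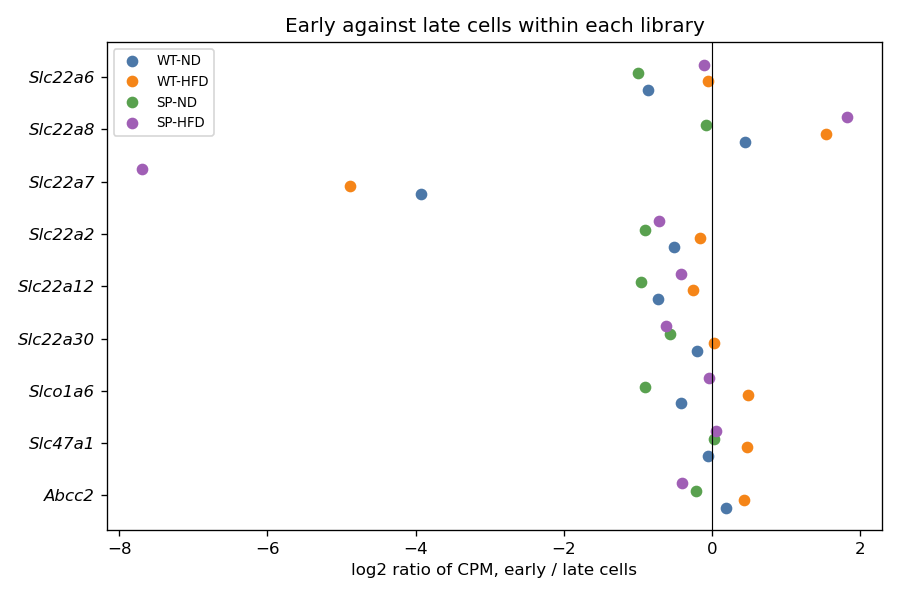
Log2 ratio of CPM in early over late cells for each transporter, 1 point per library, with cells passing both gates left out. Points right of 0 are higher in early cells. The WT-HFD and SP-HFD points of Slc22a8 (1.54 and 1.82) lie apart from the normal diet points (0.45 and -0.08), and Slc22a7 has no SP-ND point because early cells held none.

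The diet comparison set each high fat library against the normal diet library of the same genotype. A gene is counted as past the fold when its CPM differed at least 1.5-fold between the libraries and reached 20 CPM in 1 of them; no p is given. In late wild type cells 4 of 8 members tested were past the fold and all 4 were lower on high fat diet, against 17.2% of 4810 genes in either direction (10.6% higher and 6.57% lower). These were Slc22a8, Slco1a6, Abcc2 and Slc47a1, the last on the edge of the threshold. The median log2 ratio was -0.58 over the 8 members and 0.01 over all genes.

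Late Slc22a8 had a WT-HFD over WT-ND log2 ratio of -1.08 (95% counting interval -1.16 to -1.01), a 2.11-fold lower level, and an SP-HFD over SP-ND log2 ratio of -0.80 (-0.93 to -0.67). Late Slco1a6 was at -0.96 (-1.05 to -0.87) in wild type and -0.98 (-1.12 to -0.84) in Sweet Pee mice. The diet difference of these 2 carriers in late cells thus had the same sign in both genotypes, in 13 of 13 cell sets and scalings run for each. Without the cells in which another class led, the wild type values were -1.07 for Slc22a8, -0.93 for Slco1a6, -0.75 for Abcc2 and -0.56 for Slc47a1, the last then within the fold. Late Abcc2 was at -0.78 (-0.88 to -0.68) in wild type, past the fold, and at -0.37 (-0.50 to -0.23) in Sweet Pee mice, within it.

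Slc22a30 went the other way. Its diet log2 ratio was 0.54 (0.46 to 0.63) in early and 0.35 (0.28 to 0.42) in late wild type cells, both within the fold, and 1.30 (1.15 to 1.45) in early and 1.28 (1.18 to 1.39) in late Sweet Pee cells, both past it. It was above 0 under every setting run in both segments and genotypes.

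In late Sweet Pee cells 4 of 9 members were past the fold between diets, 2 higher (Slc22a7 and Slc22a30) and 2 lower (Slc22a8 and Slco1a6), against 17.1% of 4856 genes in either direction (10.1% higher and 7.04% lower), and the median was -0.07 over members and 0.02 over all genes. Slc22a7 reached 20 CPM in SP-HFD alone, so it could enter this count as higher only; without it 3 of 8 members were past the fold. Slc22a7 had the widest ratio, a log2 of 3.51 (2.99 to 4.07), or 11.4-fold. In wild type its late diet log2 ratio was 0.77 (0.42 to 1.13), from levels under 20 CPM. Without the cells in which another class led, the late wild type values were 0.84 for Slc22a7 and 0.39 for Slc22a30.

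In early wild type cells only Abcc2 passed the fold, at a log2 ratio of -0.59 (-0.69 to -0.49), so 1 of 8 members against 11.5% of 4777 genes in either direction (6.78% higher and 4.75% lower), and 5 of 8 members were below 0. In early Sweet Pee cells 4 of 8 members were past it and all 4 were higher on high fat diet, against 16.7% of 4976 genes in either direction (7.21% higher and 9.45% lower). They were Slc22a30, Slc22a6 (1.04, 0.96 to 1.12), Slc22a2 (0.76, 0.60 to 0.92) and Slc22a8 (0.59, 0.49 to 0.70). The members' median was 0.52 and that of all genes -0.06. The late marker list moved with them. Its summed level in early cells was 376, 465, 129 and 528 CPM in library order, lowest in SP-ND. Atp11a was its largest part, at 160, 289, 64.6 and 344.5 CPM. Acsm3 and Atp11a were lowest in SP-ND in late cells too, at 117 and 189 CPM. Slc7a13, of the same list, was at 114, 66.2, 35.3 and 59.5 CPM in early cells. Whether the sum followed late segment content was not tested. When early cells with any UMI of that list were left out, a choice made after the values were seen that also removes deeper cells, 224, 59, 118 and 45 cells remained, and the Sweet Pee diet log2 ratio turned to -0.41 for Slc22a6, to -0.20 for Slc22a2 and to -0.59 for Slc22a12, while Slc22a8 was at 0.28 and Slc22a30 at 0.45. In wild type the same setting took the diet log2 ratio of Slc22a6 from 0.33 to -1.06 and that of Slc22a2 from 0.01 to -0.78, and Slc22a8 was at -0.79, Slc22a12 at -1.22, Slco1a6 at -1.30 and Slc22a30 at 0.58. Members past the fold then numbered 5 in wild type and 3 in Sweet Pee mice, all of them lower on high fat diet. The share of all genes past the fold was not computed in this setting, so these counts have no background beside them. In Sweet Pee mice none of the 4 members first counted as higher stayed past the fold. The early diet counts and their direction, and the results of Slc22a6, Slc22a2 and Slc22a12, thus depend on which early cells are counted.

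**Figure D3:**
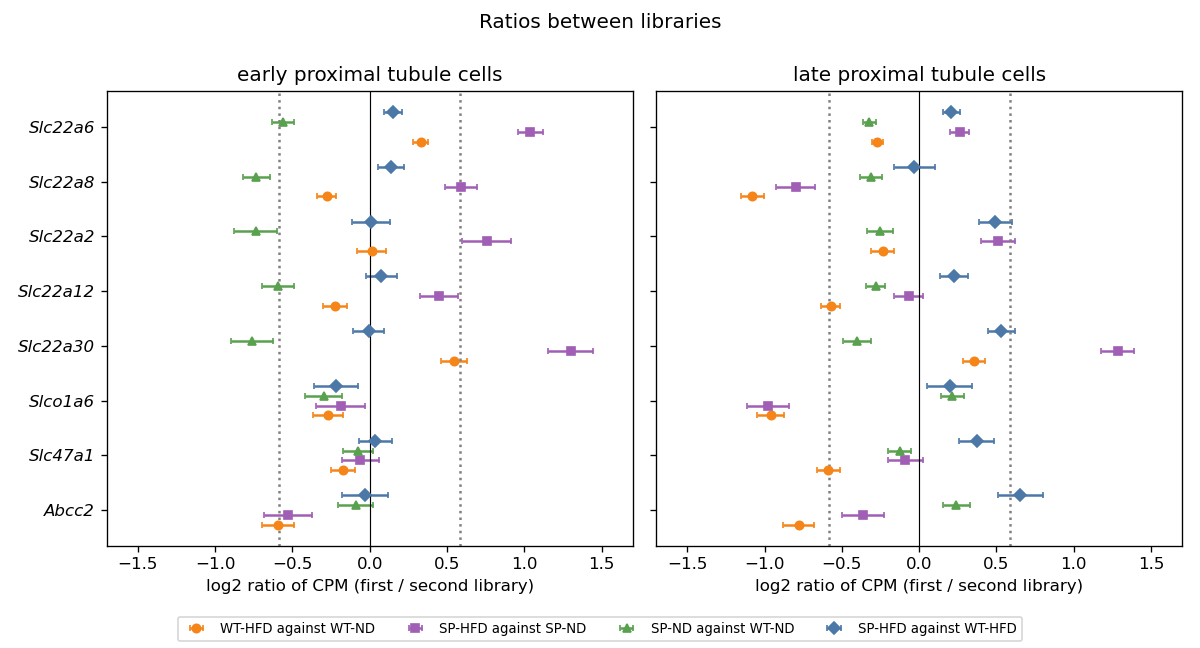
Log2 ratio of CPM between libraries for 8 transporters in early (left) and late (right) cells, with exact 95% counting intervals. Dotted lines mark 1.5-fold; Slc22a7 is left out because of its scale. In late cells both diet contrasts of Slc22a8 and Slco1a6 lie between -0.80 and -1.08, and both diet contrasts of Slc22a30 lie right of 0 in each panel.

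The genotype comparison on normal diet used the same WT-ND and SP-ND libraries as the diet comparisons. In early cells 4 of 8 members were past the fold and all were lower in SP-ND, against 5.47% of 4824 genes in either direction (3.5% higher and 1.97% lower). These were Slc22a30 (log2 ratio -0.76, -0.90 to -0.63), Slc22a2 (-0.74, -0.88 to -0.60), Slc22a8 (-0.73, -0.82 to -0.65) and Slc22a12 (-0.59, -0.70 to -0.49). All 8 members were below 0, Slc47a1 (-0.07, -0.17 to 0.02) and Abcc2 (-0.09, -0.21 to 0.02) within counting error of it, and the median was -0.58 against 0.08 over all genes. Without the early cells that held a late marker UMI, Slc22a30 alone stayed past the fold (-0.72), Slc22a8 was at -0.57 and Slc22a6 at -0.21. In late cells no member was past the fold on normal diet, against 5.17% of 4586 genes (2.31% higher and 2.86% lower), and the members' values ran from -0.40 for Slc22a30 to 0.24 for Abcc2, with Slc22a7 not counted for its low level.

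On high fat diet no early member was past the fold between genotypes, against 2.86% of 4749 genes (1.07% higher and 1.79% lower), and 8 members lay between -0.22 for Slco1a6 and 0.15 for Slc22a6. In late cells 2 of 9 were past it, both higher in SP-HFD, against 10.9% of 4874 genes (4.62% higher and 6.32% lower). They were Slc22a7 (log2 ratio 1.83, 1.51 to 2.15), which again entered the count through SP-HFD alone, and Abcc2 (0.66, 0.51 to 0.80). Without the cells in which another class led they were at 1.78 and 0.62. Abcc2 fell within the fold with no upper limit on detected genes (0.55), without Cyp7b1 cells (0.56) and when centred on the median of all genes (0.58). The member median was 0.37, and that of all genes 0.08.

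Late cells were not uniform in these carriers. Cells with a UMI of Cyp7b1, an oxysterol hydroxylase on the late marker list, were 2 of 1203, 11 of 808, 20 of 490 and 51 of 291 late cells in library order, or 17.5% of late cells in SP-HFD (exact binomial 95% interval 13.3% to 22.4%) and 0.166% in WT-ND (0.0201% to 0.599%). This split was chosen after the values were seen and carries no test. The Cyp7b1 cells held less of the anion uptake carriers than the other late cells. In SP-HFD Slc22a6 was at 186 CPM in them against 1041 CPM in the other late cells, in SP-ND at 61.3 against 837 CPM, and in WT-HFD at 440.1 against 858 CPM, a smaller difference. Slc22a8 was at 17.7 against 192 CPM in SP-HFD, at 54.5 against 318 CPM in SP-ND and at 26.9 against 186 CPM in WT-HFD. Slco1a6 was lower in the same cells too, at 53.1 against 160 CPM in SP-HFD and 40.9 against 306 CPM in SP-ND.

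The same cells held more of other carriers. Slc22a7 was at 372 against 29.9 CPM in SP-HFD, at 95.3 against 2.85 CPM in SP-ND and at 144 against 13.3 CPM in WT-HFD. Abcc2 was at 367 against 159 CPM in SP-HFD, 654 against 214 CPM in SP-ND and 251 against 108 CPM in WT-HFD. Slc22a2 was higher in them by log2 ratios of 0.55 to 0.81 in these 3 libraries, and Slc22a12 was at 0.04 in SP-HFD, 0.11 in SP-ND and 0.74 in WT-HFD. In each of these 3 libraries the cells with Cyp7b1 were thus above the other late cells in Slc22a7 and Abcc2 and below them in Slc22a6 and Slc22a8. They were shallower, with a median of 3138 UMIs in SP-HFD against 13164 in the other late cells, and WT-ND, with 2 such cells, gives no usable level.

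The late diet ratios were also computed without these cells. Slc22a8 then had diet log2 ratios of -1.07 in wild type and -0.73 in Sweet Pee mice, Slco1a6 of -0.95 and -0.94, and Slc22a30 of 0.34 and 1.31. Slc22a7 was still higher in SP-HFD than in SP-ND by a log2 of 3.39, and its ratio of SP-HFD over WT-HFD went from 1.83 to 1.17. Of the 7 late markers, 6 were highest in the late pool of SP-HFD, as Slc22a7 was, among them Mep1b at 14.3, 17.2, 19.3 and 103 CPM and Slc22a19 at 0.788, 5.39, 6.74 and 40.9 CPM in library order, and Slc7a12 was highest in SP-ND at 10.2 CPM against 5.48 CPM in SP-HFD. SP-ND, where Slc22a7 was lowest, was the lowest of the 4 for Acsm3 and Atp11a only. Late cells without a Cyp7b1 UMI still differed in late markers between SP-HFD and SP-ND. Mep1b was at 43.2 against 9.59 CPM in them, Slc22a19 at 12.6 against 2.85 CPM and Acsm3 at 583 against 112 CPM. Atp11a was at 685 against 181 CPM and Slc7a13 at 698 against 531 CPM. The part of the late markers in the Slc22a7 result was not tested beyond leaving out the Cyp7b1 cells.

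**Figure D4:**
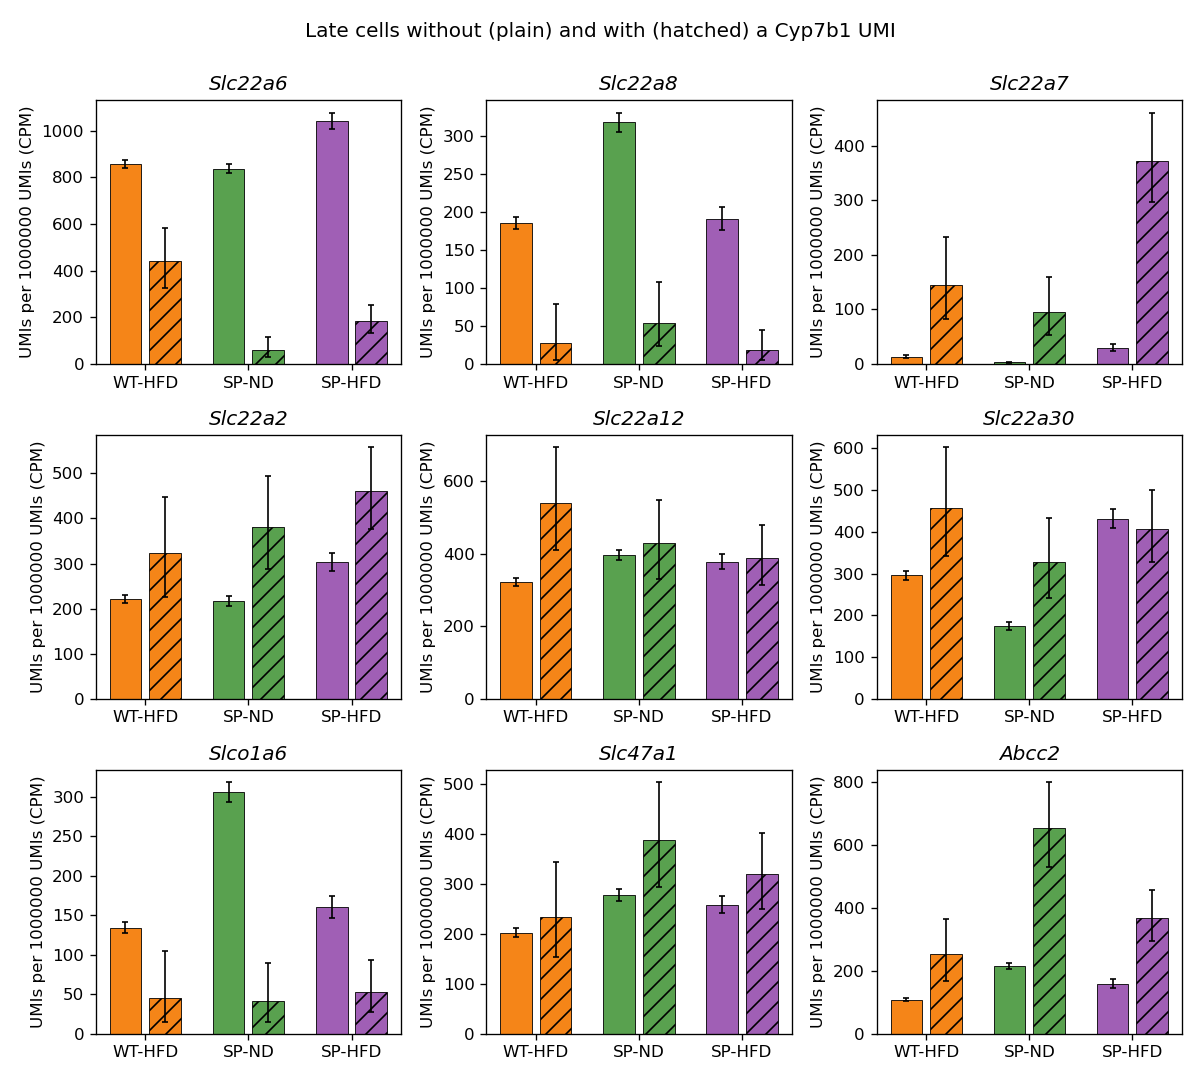
Level of each transporter (CPM, linear axis from 0) in late cells without (plain bars) and with (hatched bars) a UMI of Cyp7b1 in the 3 libraries with at least 11 such cells, with exact Poisson 95% intervals. Hatched bars are lower for Slc22a6, Slc22a8 and Slco1a6 and higher for Slc22a7 and Abcc2; in SP-HFD Slc22a8 was at 17.7 against 192 CPM and Slc22a7 at 372 against 29.9 CPM.

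Single cells rarely showed many of these transcripts at equal depth. When every cell was thinned to 1000 UMIs, Slc22a6 was seen in 32.8% to 53.5% of early and 45.3% to 56.7% of late cells by library, against 69.1% to 93.9% of late cells without thinning. In podocytes, endothelial and immune cells, which should lack it, the thinned share was 3.12% to 11.9%. Slc22a7 was seen in 7.91% of thinned late cells of SP-HFD and in 0.619% to 1.29% of those of the other libraries. Its share in the cells that should lack it was at most 0.143%. On average 1.58 to 2.24 of the 9 genes were seen per thinned tubule cell.

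Outside the proximal tubule the members were at low levels in all classes with at least 50 cells in each library. In endothelial cells, for example, Slc22a6 was at 27.7 to 93.9 CPM and Slc22a8 at 9.31 to 31.3 CPM by library, and droplet libraries carry free RNA that gives UMIs of this kind. Slc22a2 was an exception in mesangial-like or fibroblast-like cells, with 68.2, 32.8, 43.4 and 47.8 CPM in library order from 18 to 30 UMIs each, against 8.14 to 20.2 CPM in endothelial cells. Slc47a1 was at 34.8, 52.8, 30.5 and 28.4 CPM in thin limb-like cells, against 6.21 to 20.4 CPM in thick ascending limb-like cells. In these classes Slc22a2 and Slc47a1 were higher in every library than the same gene's level in the class named beside it. Against other classes this is less clear. Slc22a2 ran from 6.51 to 39.4 CPM by library in macrophages or dendritic cells, which overlaps its range in mesangial-like or fibroblast-like cells. Slc47a1 ran from 6.16 to 41.2 CPM by library in macrophages or dendritic cells and from 11.6 to 30.9 CPM in endothelial cells. Both of these Slc47a1 ranges overlap that of thin limb-like cells.

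**Figure D5:**
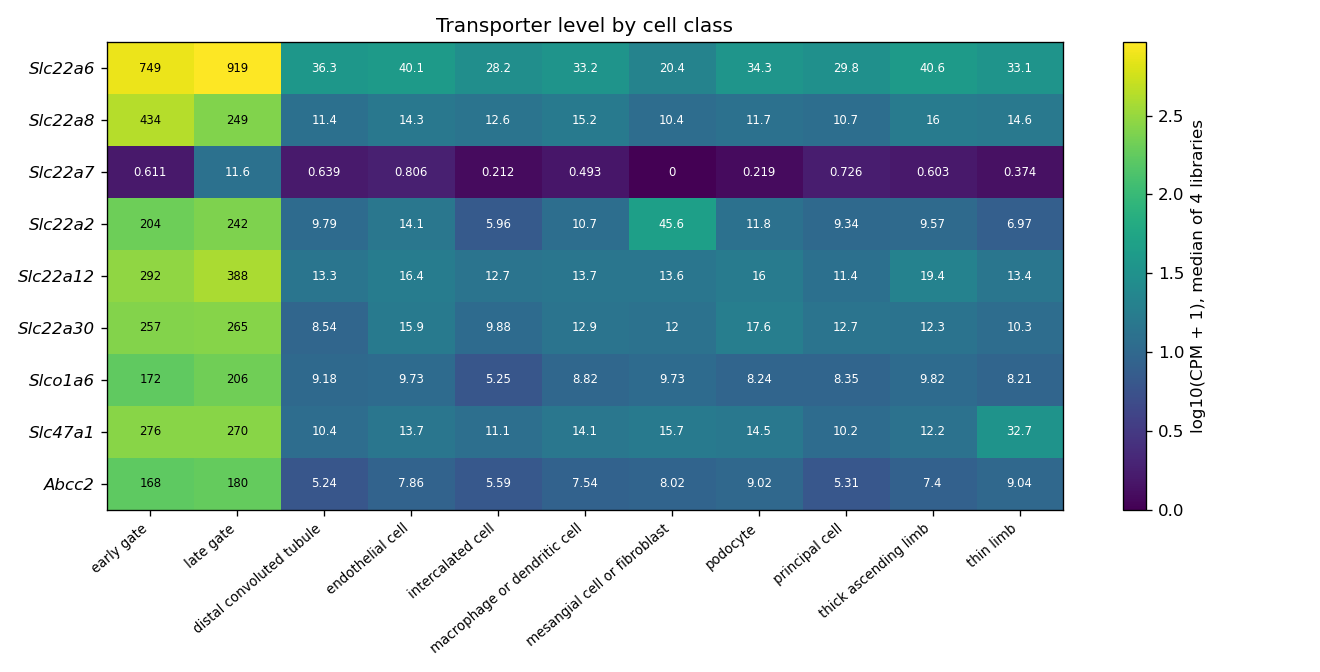
Median level over the 4 libraries (CPM, printed in each cell; colour on a log10(CPM + 1) scale) of each transporter in gated early and late cells and in 9 other cell classes named from marker genes. Slc22a2 in mesangial-like or fibroblast-like cells (45.6 CPM) and Slc47a1 in thin limb-like cells (32.7 CPM) stand above their levels in the other classes outside the proximal tubule.

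The other genes of the pathway were counted from 6 lists, with the share of all genes called in the same way beside each count. The list of dicarboxylate exchange partners, which also holds carriers of other anions, had 2 of 10 genes called as higher in early cells (5.01% of all genes). None was called in late cells (4.80%). The 2 were Slc13a1, a sulphate carrier (log2 ratio 1.06, edgeR adjusted p = 0.00249), and Slc26a1, a sulphate and oxalate exchanger (0.37, 0.0329). In WT-HFD over WT-ND early cells 3 of 9 in that list were past the fold and all were higher (6.78% of all genes), among them Slc13a2, a citrate and dicarboxylate carrier, at 63.7 against 27.3 CPM and Glud1, glutamate dehydrogenase, at 391 against 188 CPM.

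Among other Slco carriers 2 of 4 tested were called, both higher in late cells (4.80% of all genes), Slco1a1 (-3.03, edgeR adjusted p = 0.0282) and Slco3a1 (-0.74, 0.0369). Slco1a1, another organic anion transporting polypeptide, was at 62.4, 262, 1.98 and 257 CPM in early and 509, 525, 115 and 735 CPM in late cells, and SP-ND was the lowest library in both. Among other Slc22 carriers 2 of 10 were called (9.81% of all genes), Slc22a13 as higher in late cells (-3.82, edgeR adjusted p = 0.0116) and Slc22a23 as higher in early cells (0.95, 0.00956). Between WT-HFD and WT-ND early cells, 1 of 7 tested in that list was past the fold as higher (6.78% of all genes) and 1 as lower (4.75%). Slc22a4, a carnitine and ergothioneine carrier family member, was at 42.2 CPM in WT-HFD and 22.1 CPM in WT-ND. Slc22a23 was at 25.6 CPM in WT-HFD and 46.1 CPM in WT-ND.

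Among other efflux carriers 1 of 13 was called, near the 9.81% of all genes, Slc51b, a subunit of the bile acid and steroid exporter, higher in late cells (-0.55, edgeR adjusted p = 0.0341). Abcg2, an apical pump for urate and drugs, was at 287 CPM in WT-HFD and 500.2 CPM in WT-ND late cells. Of the transcription factors and scaffolds 2 of 17 were called as higher in early (5.01% of all genes) and 2 as higher in late cells (4.80%): Maf (0.98, edgeR adjusted p = 0.00611) was higher in early cells, and Slc9a3r2 (-1.14, 0.0186) and Cebpb (-0.84, 0.00306) in late cells. Bcl6, a repressor, was at 26.4 CPM in WT-HFD and 58.5 CPM in WT-ND late cells.

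Conjugating enzymes make many substrates of these carriers, and their list also holds other metabolic enzymes, among them Cyp2e1, Ephx2 and Acsm3. It had 1 of 17 called as higher in early cells, near the 5.01% of all genes, and 4 as higher in late cells (4.80%). Acsm3, which was also a marker of late cells, had a log2 ratio of -2.63 (edgeR adjusted p = 3.95e-05) and Gsta2, a glutathione transferase, of 1.72 (0.00243). In late Sweet Pee cells 8 of 15 tested were past the fold as higher on high fat diet (10.1% of all genes) and 1 as lower (7.04%), with a list median of 0.65 against 0.02 over all genes. In late wild type cells 2 of 14 were past it as higher (10.6% of all genes) and 4 as lower (6.57%). The list median there was -0.28. Ugt2b37, a glucuronosyltransferase, was at 27.9, 101, 22.6 and 312 CPM in late cells in library order.

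The genes whose pattern over the 8 pools of library and segment was most like that of a member were found for the 3 members with the largest wild type diet ratio, as the smallest root mean square difference in centred log2 CPM. For Slc22a8 these were Dpep1 (0.23), Ass1 (0.25) and Alpl (0.27). For Slco1a6 they were AI314278 (0.13), Sigirr (0.17) and Rnf145 (0.17). For Abcc2 they were Osbpl8 (0.10), Lrp2 (0.11) and A1cf (0.12).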

How the data were processed

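Kidney cells were loaded at 10000 per library for 10x 3′ sequencing, and the authors deposited UMI counts per gene and barcode made with Cell Ranger on mm10. The file header names Cell Ranger 6.1.2 and the submitters' processing notes 2.1.1. The deposited counts hold 90728590 to 115117649 UMIs per library, and 32.7% to 49.8% of barcodes had at least 50% mitochondrial UMIs. Barcodes with 200 to 5000 genes and under 50% mitochondrial UMIs were kept. The top 0.8% per 1000 cells by a simulated doublet score were removed (365 to 945 per library). The gates, CPM, exact Poisson and conditional binomial intervals at 95% and the 1.5-fold rule were computed in Python 3.11.15 with scipy 1.17.1. Other classes were named where at least 3 markers of a list were detected and led. Early and late sums were compared with edgeR 4.0.16 (R 4.3.3; TMM, filterByExpr, quasi-likelihood test, library as block), with DESeq2 1.42.0 as an alternative. The scripts for this test were checked on simulated counts. The p-values measure the spread between 4 libraries of different conditions.

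The members and lists were chosen with earlier results of these data known. Named genes were all members; from each of 6 lists up to 3 called genes with the widest early to late ratio and up to 2 with the widest WT diet ratio at 20 CPM or more; and the 3 genes most alike to each of 3 members among genes of at least 50 CPM. Promoter sequences are RefSeq's (GRCm38.p6), found for 7 of 9 members. Free RNA was not subtracted except in 1 alternative (10%).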

Additional observations from a re-analysis of the deposited data

Results flagged for a closer look

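In 4 cases the diet ratio had opposite signs in wild type and Sweet Pee mice, each beyond its counting interval. With 1 library per condition the difference between genotypes was not tested. For early Slc22a8 the log2 ratio was -0.28 in wild type and 0.59 in Sweet Pee mice, a difference of 0.87. For early Slc22a12 it was -0.22 and 0.45, a difference of 0.67. Without early cells that held a late marker UMI, Slc22a12 was below 0 in both genotypes (-1.22 and -0.59) and Slc22a8 kept its opposite signs (-0.79 and 0.28). For late Slc22a6 it was -0.27 and 0.26, a difference of 0.53. Its Sweet Pee ratio was above 0 in 12 of 13 settings, with a lowest value of -0.09, and its wild type ratio in 0 of 13. For late Slc22a2 the log2 ratio was -0.24 and 0.51, a difference of 0.75.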

How the results depend on the processing

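Of 9 members, 3 were called between early and late cells, and 1 was called with doublets kept, 5 with no filter beyond 1 UMI and 1 with no replicate block (library as block removed); leaving out each library in turn gave 1 to 5. Over all genes 1087 were called, against 643 with doublets kept, 1734 of 19510 with no filter, 654 with under 30% mitochondrial UMIs, 152 with no replicate block, 356 without WT-ND and 349 without SP-HFD. DESeq2 called 3 members and 756 genes. Slc22a7 was called in every setting run.

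Members past 1.5-fold in early WT-HFD against WT-ND cells went from 1 to 0 with under 30% mitochondrial UMIs, with no upper limit on detected genes, without cells passing both gates and with 10% ambient RNA subtracted, and to 5 without early cells that held a late marker UMI, an alternative chosen after seeing the data. The last setting also took SP-ND against WT-ND from 4 to 1 and SP-HFD against WT-HFD from 0 to 1 in early cells, and turned below 0 the SP diet ratio of early Slc22a6 (-0.41), Slc22a2 (-0.20) and Slc22a12 (-0.59) and the WT diet ratio of early Slc22a6 (-1.06) and Slc22a2 (-0.78). In that setting SP-HFD against SP-ND in early cells went from 4 members, all higher, to 3 others, all lower. With no minimum CPM, SP-HFD against WT-HFD in early cells and SP-ND against WT-ND in late cells each went from 0 to 1. Late SP-HFD against WT-HFD went from 2 to 4 with under 30% mitochondrial UMIs and without cells passing both gates, to 5 as a mean over cells, and to 1 with no upper limit on detected genes, centred on the median of all genes, or without Cyp7b1 cells (chosen after seeing the data), Abcc2 being the member lost in all 3. The cause was not tested. Shares of all genes past the fold were not computed for these alternative settings. Of 973 single values 812 stayed on their side or within their interval. Low counts limit Slc22a7 in early cells, where it had at most 8 UMIs in a pool.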
